A study of Mus musculus with 6 samples.

Results

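The genes described here are the ABC efflux transporters of the MRP group (Abcc), the P-glycoproteins (Abcb1a and Abcb1b) and the breast cancer resistance protein (Abcg2), in primary dermal fibroblasts of newborn mice. They were chosen by name, as Abcc1, Abcc2, Abcc3, Abcc4, Abcc5, Abcc9, Abcc10, Abcb1a, Abcb1b and Abcg2, which is 10 of the 43629 genes measured. The RNA of 6 cultures was sequenced, 3 per group. All 6 were passage 1 dermal fibroblasts grown for 6 days on a mixed background of 50% C57Bl/6 and 50% FVB/N, and all carried Col1a2Cre, a Cre recombinase under a fibroblast collagen promoter. The 3 cultures called ctrl held Cre only (Col1a2Cre-wt). The 3 called caNrf2 held Cre together with a constitutively active mutant of the transcription factor Nrf2 (Col1a2Cre-caNrf2). Per the series' design text, each group's fibroblasts came from 3 mice, and the sample titles give only a group and a number. If libraries shared an animal, the p-values below would measure only the spread between these libraries.

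ABC transporters use ATP to move substrates across membranes, and those of the efflux type move them out of the cell. The MRP pumps export organic anions, among them drugs and lipids that have been joined to glutathione, glucuronic acid or sulfate, and several also export cyclic nucleotides or eicosanoids. P-glycoproteins export hydrophobic drugs, and Abcg2 exports urate, porphyrins and many drugs. Nrf2 binds antioxidant response elements with small MAF partners and is known to drive conjugating enzymes and some MRP genes.

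The list holds an exception to its name. Abcc9 encodes the sulfonylurea receptor SUR2, a regulatory subunit of ATP-sensitive potassium channels, and is not known as a pump. Its own values are therefore described apart from the pumps, while counts, medians and sums over the list include it.

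Levels are given as counts scaled to a common library total with TMM factors (CPM), and for comparisons between genes as the deposited TPM values, which are scaled per transcript length as well. A gene is called where its Benjamini-Hochberg adjusted p over the 15341 genes tested is under 0.05 in edgeR's quasi-likelihood test. Libraries held 30168250 to 45164071 expected counts, and 1 read equalled 0.0223 to 0.0331 CPM depending on the library. Of all genes tested, 21.5% were called. All 9 listed fibroblast markers were tested. Their summed level was 33840 to 50180 CPM in ctrl and 24100 to 29570 CPM in caNrf2, with Col1a1, Col1a2 and Col3a1 lower (log2 fold changes -0.56, -0.70 and -0.99), Pdgfra and Thy1 higher and 4 not called. Nfe2l2, the gene of Nrf2, was at 103 to 113 CPM in ctrl and 353 to 430 CPM in caNrf2 (log2 fold change 1.8, SE 0.10, edgeR adjusted p = 5.96e-06). Reads of the Nrf2 mutant and of the cells' own Nfe2l2 gene were not separated here. The macrophage and leukocyte markers also moved with the genotype. Of 13 listed, none was at 0 in every library and 12 were higher in caNrf2, and their summed level was 21.4 to 60.8 CPM in ctrl and 150 to 181 CPM in caNrf2. Of 8 tested skeletal muscle markers, 5 were higher and none was lower, with a summed level of 109 to 120.3 CPM in ctrl and 146 to 211 CPM in caNrf2. Also higher were the Schwann cell marker S100b, the keratinocyte marker Krt14 (of 8), the endothelial marker Cdh5 (of 9) and Kit, the single mast cell marker tested. Of the 7 listed mast cell markers, 5 had at most 3 counts in every library, and 4 of these were at 0 throughout. No melanocyte or adipocyte marker was called. Over 18 alternative settings of the processing, left-out libraries included, Col1a1 and Kit were called in 13 each, Krt14 in 14, and Cdh5 and S100b in 17 each. In bulk cultures, fewer cells of a type and less RNA per cell cannot be told apart.

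Of the 10 genes, 9 passed the filter on low counts and were tested. Abcc1, Abcc3 and Abcc4 were higher in caNrf2, where 12.5% of all tested genes were called higher. Abcc9 was lower, where 9.03% of all tested genes were called lower. No pump of the list was called lower. The other 5 tested genes, Abcc5, Abcc10, Abcb1a, Abcb1b and Abcg2, were not called, and Abcc2 was too low to test. The groups of 3 libraries did not overlap in 6 of the 9 tested genes, against 42.1% of all genes tested. The median log2 fold change of the 9 was 0.15, beside -0.0031 over all genes tested. The calls of all 4 genes held in each of the 18 other settings tried.

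**Figure D1:**
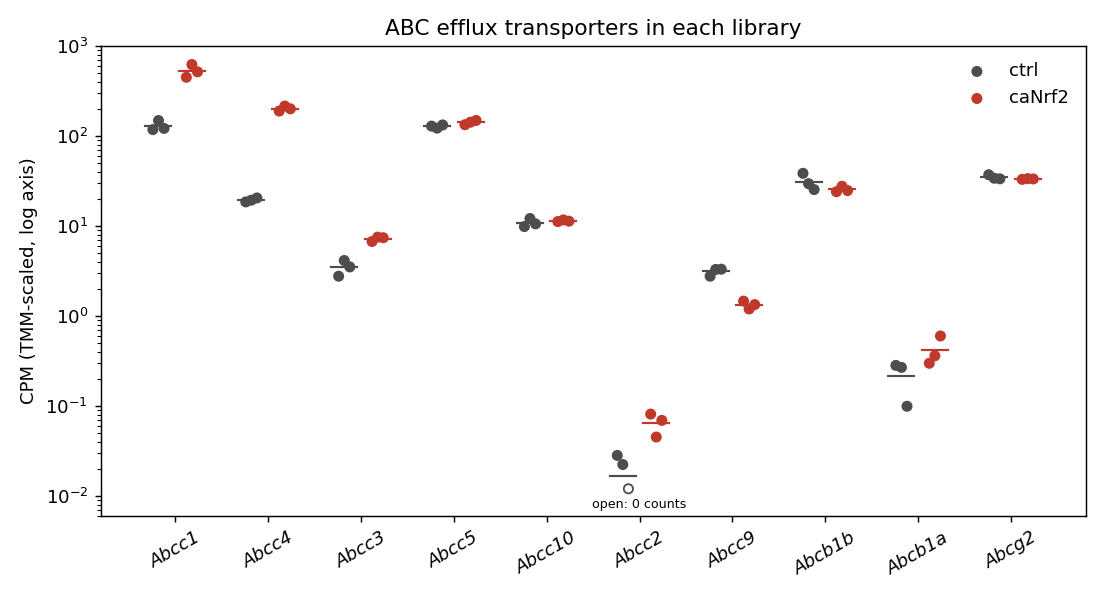
CPM of each of the 10 genes (log axis) in the 3 ctrl (grey) and 3 caNrf2 (red) libraries. Points are libraries, short lines are group means, and the open point marks 0 counts. Abcc1, Abcc4 and Abcc3 stand apart upward in caNrf2 and Abcc9 downward, while Abcc10, Abcb1b and Abcg2 overlap between groups.

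Abcc4 showed the largest change of the 10 genes. It encodes MRP4, a pump for cyclic nucleotides, prostaglandins, urate and conjugated steroids (ENSMUSG00000032849, chr14:118482692-118706219, minus strand, GRCm38). Both deposited transcripts of Abcc4 begin at the same base, and the sequence before that start is shown because the gene rose more than any other on the list. The 250 bases before the RefSeq start (chr14:118706220-118706469, minus strand, GRCm38.p6), written 5′ to 3′ on the gene's strand with a match to the core antioxidant response element in capitals, are:
Abcc4 promoter: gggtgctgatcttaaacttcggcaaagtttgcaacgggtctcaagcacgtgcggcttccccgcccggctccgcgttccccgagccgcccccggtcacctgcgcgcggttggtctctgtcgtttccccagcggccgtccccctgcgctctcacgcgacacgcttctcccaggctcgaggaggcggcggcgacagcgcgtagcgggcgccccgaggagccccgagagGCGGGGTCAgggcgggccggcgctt
The capitals lie at -25 to -17 from the start and match TGACNNNGC read on the opposite strand.

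In ctrl the level of Abcc4 was 18.5, 19.3 and 20.5 CPM. In caNrf2 it was 189, 215 and 200 CPM. Every caNrf2 library was thus far above every ctrl library, and the spread within each group was small. The means were 19.4 ± 0.985 and 201 ± 13.0 CPM (SD, n = 3 each), a 10.4-fold rise with a log2 fold change of 3.37 (SE 0.09, 95% interval 3.17 to 3.57, edgeR adjusted p = 8.51e-08). Over the 18 other settings the log2 fold change lay between 3.32 and 3.42.

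The reads of Abcc4 were divided between a transcript with 31 exons, ENSMUST00000036554, and a transcript with 30 exons, ENSMUST00000166646. They differ by exon 4 (chr14:118654150-118654374, minus strand), which is 225 bases long, wholly coding and 75 codons without remainder. The exon and the junction formed by its absence are shown because caNrf2 libraries held counts for the shorter form. In the junction, the capitals mark the exon after the skipped one. Both are read from GENCODE M21 transcripts (GRCm38):
Abcc4 exon 4: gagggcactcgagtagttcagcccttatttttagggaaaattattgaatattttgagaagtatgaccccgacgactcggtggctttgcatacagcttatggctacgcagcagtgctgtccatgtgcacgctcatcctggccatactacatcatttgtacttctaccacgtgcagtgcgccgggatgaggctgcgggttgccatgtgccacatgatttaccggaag
Abcc4 junction without exon 4: tttacgttaattgagGCACTCCGGTTAAGT

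The form without exon 4 was assigned 7.72, 0 and 0 expected counts in ctrl. In caNrf2 it was assigned 1318, 399.7 and 796.5. As a share of the gene's counts this was 1.18%, 0% and 0% in ctrl and 18.9%, 4.20% and 9.18% in caNrf2, so that the caNrf2 libraries lay above the ctrl libraries but differed widely among themselves. Transcript usage was tested with diffSpliceDGE, which called 58 of 7992 genes (0.726%), or 77 to 118 genes with single libraries left out. Abcc4 was not among them (edgeR diffSpliceDGE adjusted p = 0.0785). Its adjusted p was 0.042 with no filter on low transcripts and 0.0502 to 0.235 with single libraries left out. ctrl libraries held 619 to 866 Abcc4 counts in all, against 6984 to 9528 in caNrf2. RSEM divides shared reads by estimate, so counts of single transcripts are less certain than the gene's sum. The longer form rose as well, from 619 to 866 counts in ctrl to 5666 to 9128 in caNrf2.

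**Figure D2:**
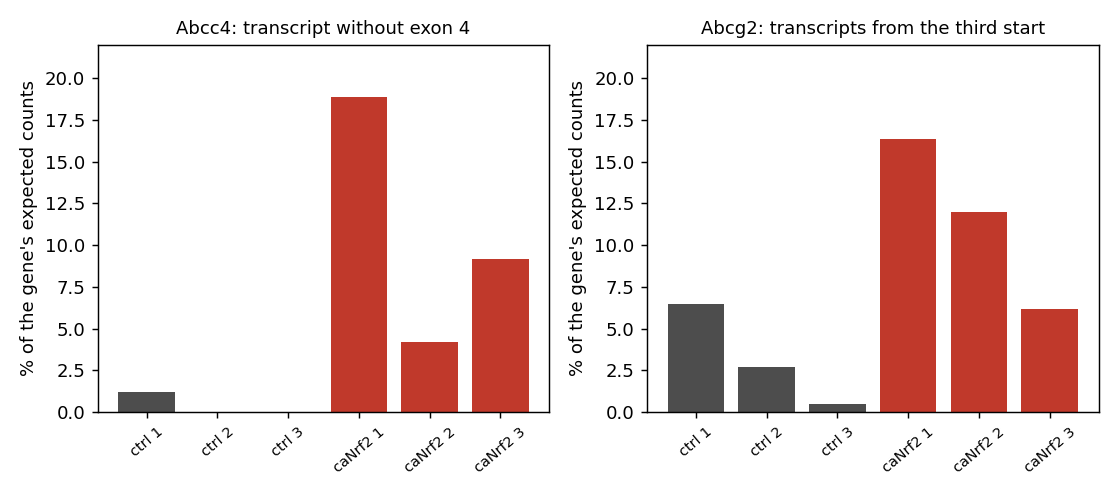
Share of a gene's expected counts (%) in each library for the Abcc4 transcript without exon 4 (left) and for the Abcg2 transcripts from its downstream start (right), ctrl grey and caNrf2 red. The Abcc4 form took 4.20% to 18.9% in caNrf2 and at most 1.18% in ctrl, and the Abcg2 shares overlap between groups.

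Abcc1 encodes MRP1, the classic exporter of glutathione conjugates, oxidised glutathione and leukotriene C4 (ENSMUSG00000023088, chr16:14361558-14475737, plus strand). Its level was 118, 148 and 121 CPM in ctrl. In caNrf2 it was 449, 621 and 516 CPM. The lowest caNrf2 library was well above the highest ctrl library. The means were 129 ± 16.8 and 528 ± 86.9 CPM (SD, n = 3 each), a 4.09-fold rise with a log2 fold change of 2.03 (SE 0.14, 95% interval 1.71 to 2.36, edgeR adjusted p = 2.21e-05). Its transcript ENSMUST00000100167, protein coding with 31 exons, held 80.0% to 93.0% of the counts in all 6 libraries. Usage of the 6 tested Abcc1 transcripts was not called (edgeR diffSpliceDGE adjusted p = 1.0).

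Abcc3 encodes MRP3, a pump for glucuronides and bile acids (ENSMUSG00000020865, chr11:94343295-94392997, minus strand). It was expressed at a low level, with 98 to 185 counts per ctrl library. Its level was 2.76, 4.13 and 3.50 CPM in ctrl. In caNrf2 it was 6.71, 7.51 and 7.39 CPM. The groups did not overlap. The means were 3.47 ± 0.684 and 7.21 ± 0.431 CPM (SD, n = 3 each), a 2.07-fold rise with a log2 fold change of 1.05 (SE 0.17, edgeR adjusted p = 0.0025). The counts of Abcc3 were shared by ENSMUST00000178136 and ENSMUST00000021231, which have 31 exons each and nearly the same ends. ENSMUST00000021231 took 33.4%, 0% and 0% in ctrl and 40.4%, 50.6% and 54.9% in caNrf2. That shift was not called (edgeR diffSpliceDGE adjusted p = 1.0). Whether other cell types, whose markers are given above, have a part in the rises of Abcc1, Abcc3 or Abcc4 was not tested.

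Abcc5 encodes MRP5, an exporter of cyclic nucleotides and folates (ENSMUSG00000022822, chr16:20331303-20426394, minus strand). Its level was 129, 122 and 133 CPM in ctrl. In caNrf2 it was 133, 142 and 149 CPM, just above the ctrl libraries. The log2 fold change was 0.15 (SE 0.08, 95% interval -0.03 to 0.32), which was not called (edgeR adjusted p = 0.218). In TPM the order of the means was turned, at 71.0 ± 2.15 in ctrl and 69.4 ± 3.83 in caNrf2 (SD, n = 3 each), and the libraries overlapped. The full-length coding transcript ENSMUST00000079158 held 30.9% to 42.1% of the Abcc5 counts in ctrl and 46.4% to 50.8% in caNrf2. A transcript with a retained intron, ENSMUST00000134962, held 33.1% to 34.4% in ctrl and 25.3% to 30.3% in caNrf2. These shares did not overlap between groups, but usage over the 10 tested Abcc5 transcripts was not called (edgeR diffSpliceDGE adjusted p = 1.0, unadjusted p = 0.654).

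Abcc10 encodes MRP7, a pump of lipophilic anions and taxanes (ENSMUSG00000032842, chr17:46303221-46328352, minus strand). Its level was 9.84, 12.1 and 10.5 CPM in ctrl and 11.2, 11.7 and 11.3 CPM in caNrf2. The caNrf2 libraries lay within the range of ctrl, and the log2 fold change was 0.07 (SE 0.11, 95% interval -0.17 to 0.31, edgeR adjusted p = 0.673). The end of Abcc10 overlaps Dlk2 on the other strand from base 46303221 to 46303271, with 27 to 118 counts for Dlk2 against 319 to 541 for Abcc10. The strand setting of the counting is not given in the sources used here.

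Abcc2 encodes MRP2, the conjugate pump of the bile canaliculus (ENSMUSG00000025194, chr19:43782192-43840740, plus strand). It had 1, 1 and 0 counts in ctrl and 3, 2 and 3 counts in caNrf2. These are at or under a floor of 3 counts, so no fold is given, and a difference was not detectable at this depth.

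P-glycoprotein is encoded in mice by a pair of neighbouring genes, Abcb1a (ENSMUSG00000040584, chr5:8660077-8748575) and Abcb1b (ENSMUSG00000028970, chr5:8798147-8866314), both on the plus strand. Abcb1b carried nearly all of the reads. Its level was 38.4, 29.5 and 25.4 CPM in ctrl and 24.0, 27.6 and 24.7 CPM in caNrf2. The groups overlapped, with ctrl replicate 1 above the other 5 libraries. The log2 fold change was -0.29 (SE 0.14, 95% interval -0.62 to 0.04), which was not called (edgeR adjusted p = 0.186).

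Abcb1a had 10, 12 and 3 counts in ctrl and 11, 16 and 26 counts in caNrf2. That corresponds to 0.282, 0.268 and 0.0992 CPM in ctrl and 0.298, 0.361 and 0.599 CPM in caNrf2. The groups lay next to each other without overlap. The log2 fold change of 0.91 had a wide interval (SE 0.44, 95% interval -0.09 to 1.91) and was not called (edgeR adjusted p = 0.178). The genes are close paralogs, and 768 of the 4257 stretches of 50 bases in the Abcb1b transcript (18%) also occur in the main Abcb1a transcript, so their separate values are uncertain. With the counts of both added, the log2 fold change was -0.28 (SE 0.14, edgeR adjusted p = 0.206).

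Abcg2, the gene of the breast cancer resistance protein, was not called (ENSMUSG00000029802, chr6:58584523-58692869, plus strand). Its level was 37.1, 33.9 and 33.4 CPM in ctrl and 32.9, 33.5 and 33.3 CPM in caNrf2. The log2 fold change was -0.07 (SE 0.07, edgeR adjusted p = 0.562), and its 95% interval of -0.23 to 0.10 lies far below the changes of Abcc1 and Abcc4. Abcg2 has several starts, and RefSeq's table holds 3 windows for it. The sequences before the start that held most counts and before the downstream start are shown because the libraries differed in how far they used the latter. Both are 250 bases on the plus strand (GRCm38.p6), chr6:58596422-58596671 and chr6:58640296-58640545, with no match to TGACNNNGC in either:
Abcg2 main start: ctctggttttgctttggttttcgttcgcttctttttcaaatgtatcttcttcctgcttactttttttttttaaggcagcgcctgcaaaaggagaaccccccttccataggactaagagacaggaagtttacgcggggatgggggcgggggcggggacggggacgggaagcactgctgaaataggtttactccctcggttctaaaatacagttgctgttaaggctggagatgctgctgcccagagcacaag
Abcg2 downstream start: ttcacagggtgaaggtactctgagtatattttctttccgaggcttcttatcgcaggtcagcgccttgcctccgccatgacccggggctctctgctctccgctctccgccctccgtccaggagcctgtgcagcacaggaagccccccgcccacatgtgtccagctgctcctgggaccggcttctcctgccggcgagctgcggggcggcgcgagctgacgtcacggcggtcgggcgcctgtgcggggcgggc

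The transcript ENSMUST00000031822 from the main start held 91.9%, 96.1% and 98.0% of the Abcg2 counts in ctrl and 82.1%, 86.9% and 93.4% in caNrf2. The 4 transcripts from the downstream start were assigned 84.8, 41.2 and 4.9 counts in ctrl and 198.7, 177.5 and 88.8 in caNrf2. As shares these were 6.45%, 2.72% and 0.482% against 16.3%, 11.9% and 6.15%. The share in caNrf2 replicate 3 was below that in ctrl replicate 1, so the groups overlapped. Usage of Abcg2 transcripts was not called (edgeR diffSpliceDGE adjusted p = 1.0, unadjusted p = 0.0574).

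Abcc9, the potassium channel subunit, went the other way (ENSMUSG00000030249, chr6:142587862-142702274, minus strand). It had 98 to 147 counts per ctrl library and 53 to 58 per caNrf2 library. Its level was 2.76, 3.28 and 3.31 CPM in ctrl and 1.46, 1.2 and 1.34 CPM in caNrf2. The groups did not overlap. The means were 3.12 ± 0.306 and 1.33 ± 0.133 CPM (SD, n = 3 each), a ratio of 0.427 with a log2 fold change of -1.23 (SE 0.18, 95% interval -1.64 to -0.81, edgeR adjusted p = 0.00185). The assignment of its reads to transcripts jumped between libraries, with ENSMUST00000100827 holding all counts in ctrl replicates 1 and 2 and caNrf2 replicate 2, 82.7% in ctrl replicate 3, 41.7% in caNrf2 replicate 3 and none in caNrf2 replicate 1.

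The pore that SUR2 joins was sparse in these cultures. Kcnj8, the pore gene usually paired with it, was at 0.592, 0.848 and 0.793 CPM in ctrl and 0.595, 0.293 and 0.438 CPM in caNrf2, which was not called (log2 fold change -0.77, SE 0.32, edgeR adjusted p = 0.128). Kcnj11 had at most 3 counts in any library. Abcc9 and Kcnj8 are also markers of pericytes. Of the 10 listed pericyte and smooth muscle markers, 9 were tested, Des and Myh11 were higher, Pdgfrb was lower and 6 were not called. The call of Pdgfrb was lost without ctrl replicate 2, ctrl replicate 3 or caNrf2 replicate 2 (edgeR adjusted p up to 0.0774). Their summed level was 822 to 936 CPM in ctrl and 650 to 778 CPM in caNrf2, of which Pdgfrb alone was 436 to 723 CPM. The defining pericyte marker Rgs5 was at 1.83 to 3.07 CPM in ctrl and 1.49 to 2.32 CPM in caNrf2, and Higd1b had at most 3 counts in any library. Their part in the fall of Abcc9 was not tested.

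On the TPM scale, which allows levels of genes to be ordered, Abcc5 led in ctrl at 71.0 ± 2.15 TPM (SD, n = 3). Abcc1 followed at 39.9 ± 4.93, Abcg2 at 28.1 ± 2.30, Abcb1b at 13.5 ± 2.83, Abcc4 at 6.35 ± 0.350 and Abcc10 at 4.97 ± 0.314 TPM. Abcc3, Abcc9, Abcb1a and Abcc2 were lower, from 1.41 TPM down to 0.00667 TPM. No neighbours in this order overlapped in their ctrl libraries. These TPM values are summed over all transcripts of a gene, and most of that of Abcc5 came from transcripts with a retained intron or of short length. Its full-length coding transcript was at 12.2 to 18 TPM in ctrl, below the main coding transcripts of Abcc1 (26.6 to 33.3 TPM) and Abcg2 (25.2 to 26.1 TPM).

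In caNrf2 the order was different. Abcc1 led at 152 ± 35.0 TPM. Abcc5 at 69.4 ± 3.83 and Abcc4 at 63.6 ± 6.79 TPM came next and overlapped. Over full-length coding transcripts alone, ENSMUST00000036554 of Abcc4 was at 45.3 to 66.7 TPM and ENSMUST00000079158 of Abcc5 at 19.6 to 23.1 TPM. Abcg2 at 26.3 ± 0.586, Abcb1b at 10.6 ± 1.23, Abcc10 at 4.90 ± 0.527 and Abcc3 at 2.76 ± 0.122 TPM followed without overlap. Abcb1a overlapped both Abcc3 and Abcc9, with 0.21, 5.86 and 0.58 TPM. Its value in caNrf2 replicate 2 rested on 1.96 expected counts on a transcript of 129 bases, which alone gave 5.74 TPM.

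The summed level of the 10 genes in ctrl was 165.7, 169.5 and 163.1 TPM, and in caNrf2 it was 282.7, 379.5 and 335.5 TPM. The ratio of the means was 2.00. It was 2.20 over transcripts of at least 1000 bases, a cut chosen after seeing the Abcb1a value, and 2.64 in CPM. The make-up of this sum shifted with the genotype. Abcc5 made up 41.5% to 45% of it in ctrl and 18.2% to 23.3% in caNrf2. Abcc1 went from 22.1% to 26.9% in ctrl to 41.6% to 49.4% in caNrf2, and Abcc4 from 3.63% to 4.11% to 18.4% to 19.9%. Abcg2, with 15.8% to 18.6% in ctrl, made up 7.12% to 9.23% in caNrf2, although its own level was not called as changed.

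**Figure D3:**
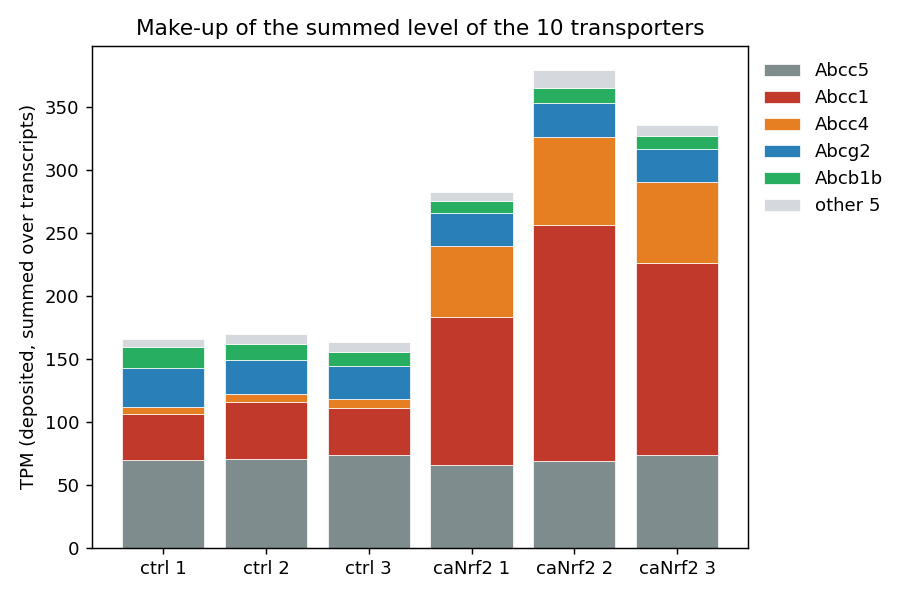
Summed deposited TPM of the 10 genes in each library, stacked by gene from 0. ctrl bars end between 163.1 and 169.5 TPM and caNrf2 bars between 282.7 and 379.5 TPM, with taller Abcc1 and Abcc4 segments and Abcc5 at 65.8 to 73.4 TPM in all 6 bars.

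The core antioxidant response element, written TGACNNNGC and searched on both strands, was present in 12.4% of the 32851 RefSeq promoter windows of 300 bases and in at least 1 window of 14% of the genes. Of the 10 transporters, 8 had windows, all but Abcc1 and Abcc3, and 4 of these held a match. Beside the match of Abcc4 given above, a second Abcc4 window with no deposited transcript holds TGACTCTGC at -23 to -15. Abcc10, which was not called, holds TGACCTGGC at -203 to -195 of its main window and TGACATGGC at 12 to 20 of a second one. Abcc2, which was hardly expressed, holds TGACATAGC at -98 to -90. Abcb1a holds GCGGAGTCA at 27 to 35 of a window where no deposited transcript starts. Abcb1b, Abcg2, Abcc9 and Abcc5 had no match in their windows. Among all 40 ABC genes with a window, 5 held a match.

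By the root mean square difference of centred log2 CPM over the 6 libraries, the genes most like Abcc4 were Sel1l3 (0.0825) and Dmp1 (0.0902). Sel1l3 was at 0.430 to 0.451 CPM in ctrl and 4.57 to 5.80 CPM in caNrf2. Dmp1 had 0 counts in every ctrl library and 17 to 24 in caNrf2. Their log2 fold changes in the test were 3.56 and 7.31, beside 3.37 for Abcc4. Likeness was taken on log2 CPM with a prior count of 2, which shrinks the change of a gene with as few counts as Dmp1. Those most like Abcc1 were a gene without a symbol, ENSMUSG00000098220 (0.061), at 4.0 to 5.05 CPM in ctrl and 16.6 to 21 CPM in caNrf2, and Dusp18 (0.0696), at 13.5 to 16.3 and 54.9 to 67.1 CPM. For Abcc9 they were Klhl29 (0.104), at 40.8 to 44.2 and 18.6 to 20.5 CPM, and Cadm3 (0.107), at 9.13 to 10.8 and 4.26 to 5.28 CPM.

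The rest of the ABC family gave a frame for these values. Of all genes tested, 12.5% were called higher and 9.03% lower. Of 43 other listed ABC genes, 29 were tested, 7 were higher, 4 were lower and 18 were not called. Their median log2 fold change was 0.11. Without caNrf2 replicate 2 the counts were 4 higher and 2 lower. The lower ones numbered 2 without ctrl replicate 2, and 1 without ctrl replicate 3 or without caNrf2 replicate 3. The transporters above had 3 higher and 1 lower of 9 tested. The remaining Abcc genes, Abcc6, Abcc8, Abcc12 and Cftr, were too low to test, at a summed 0.113 to 0.446 CPM.

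Abcb6, a porphyrin transporter, was at 21.3, 22.5 and 24.0 CPM in ctrl. In caNrf2 it was at 65.0, 66.4 and 61.3 CPM, with no overlap (log2 fold change 1.51, SE 0.08, edgeR adjusted p = 2.81e-06). Abca13, of the lipid transporter subfamily A, had 13, 6 and 13 counts in ctrl and 231, 260 and 245 in caNrf2 (log2 fold change 4.31, SE 0.31, edgeR adjusted p = 2.47e-05). Those were the largest rises among the other ABC genes that were tested. Abcd4, which takes part in lysosomal export of vitamin B12, Abca7 and Abcf2 rose by less, with log2 fold changes of 0.52, 0.38 and 0.31 (edgeR adjusted p = 0.00192, 0.0152 and 0.022). The call of Abca7 was lost without caNrf2 replicate 2 (edgeR adjusted p = 0.0595). That of Abcf2 was lost without ctrl replicate 1, ctrl replicate 3 or caNrf2 replicate 2, and without replicate 1 of both groups (edgeR adjusted p up to 0.0931).

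Lower in caNrf2 were Abca9 (61.2 ± 11.9 to 34.0 ± 3.59 CPM, SD, n = 3 each, log2 fold change -0.85, edgeR adjusted p = 0.00387), Abca5 (70.2 ± 19.3 to 41.8 ± 5.0 CPM, -0.75, adjusted p = 0.0208), Abcg4 (-1.36, adjusted p = 0.0169) and Abcb8 (-0.32, adjusted p = 0.0462). Abca9 and Abca5 lie in a cluster of subfamily A genes on chromosome 11, with Abca6 between them. In that cluster Abca6 and Abca8a were not called (log2 fold changes -0.47 and -0.29, edgeR adjusted p = 0.276 and 0.34). Abca8b was higher (log2 fold change 0.55, edgeR adjusted p = 0.0247). The call of Abca9 held in every setting. The call of Abca5 was lost without ctrl replicate 1, ctrl replicate 3, caNrf2 replicate 2 or caNrf2 replicate 3 (edgeR adjusted p up to 0.0637). That of Abcg4, with 8 to 30 counts per library, was lost without ctrl replicate 2, ctrl replicate 3 or caNrf2 replicate 3 and with DESeq2 (adjusted p up to 0.0704 in edgeR and 0.0504 in DESeq2). The call of Abcb8 held in 9 of 18 other settings and was lost without any single library other than ctrl replicate 1 (edgeR adjusted p up to 0.147).

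**Figure D4:**
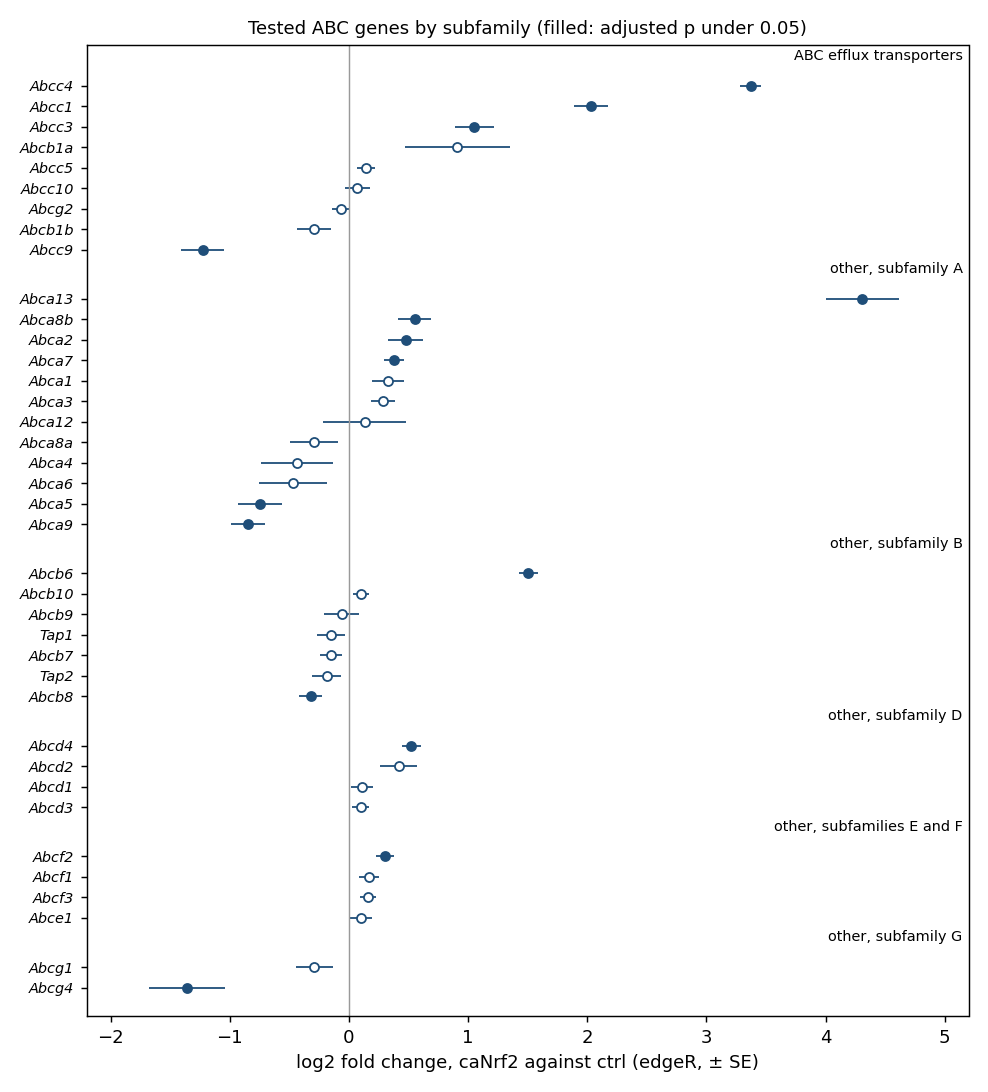
log2 fold change (caNrf2 against ctrl, edgeR) with its SE for each tested ABC gene, the 9 tested efflux transporters first and the other 29 by subfamily. Filled points are called. Abcc4 (3.37), Abcc1 (2.03), Abca13 (4.31) and Abcb6 (1.51) lie farthest to the right and Abcg4 (-1.36) and Abcc9 (-1.23) farthest to the left.

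The genes that make, use or accompany the pumps' substrates were taken from further lists. Their counts of called genes stand beside 12.5% of all tested genes called higher and 9.03% called lower. Of 33 tested conjugating enzymes, which supply glutathione, glucuronide and sulfate conjugates, 18 were higher and 3 lower, with a median log2 fold change of 0.85. Some of the 18 passed the filter on low counts only through caNrf2. Among these, Gsta2, Ugt1a2, Ugt1a8 and Mgst2 had at most 3 counts in any ctrl library. Such genes could be called only as higher, and they enter both the count and the median. Gsta4 was at 13.9 to 15.5 CPM in ctrl and 321 to 391 CPM in caNrf2 (log2 fold change 4.59, edgeR adjusted p = 8.51e-08), and Gsta3 had 6 to 15 counts in ctrl and 6732 to 7267 in caNrf2. The theta-class Gstt1 and Gstt3 were lower, with log2 fold changes of -1.18 and -1.29 (edgeR adjusted p = 0.000514 and 0.00446).

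Of 9 tested genes of leukotriene C4 synthesis and breakdown, whose product is carried by Abcc1, 5 were higher and none was lower. The summed level of the list was 73.95 to 87.55 CPM in ctrl and 72.12 to 105.7 CPM in caNrf2, but some genes were low. Mgst2 had 2 to 3 counts in ctrl and 17 to 30 in caNrf2, and Ggt1 had 2 to 5 counts in ctrl and 16 to 24 in caNrf2. Both passed the filter on low counts only through caNrf2, so they could be called only as higher. Alox5, Alox5ap and Ggt5 were the other 3 that were higher, and Alox5 and Alox5ap are typical of leukocytes, whose markers were higher too. The part of those cells in these values was not tested.

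Cyclic nucleotides are carried by Abcc4 and Abcc5. Of 29 tested genes that make or break them down, 6 were higher and 7 lower, with a median log2 fold change of -0.03. Adcy5, an adenylyl cyclase, was at 5.98 to 7.59 CPM in ctrl and 15.2 to 16.7 CPM in caNrf2 (log2 fold change 1.17, edgeR adjusted p = 0.000207), and Adcy8 had at most 1 count in ctrl and 41 to 93 in caNrf2. Adcy8 passed the filter on low counts only through caNrf2, so it could be called only as higher. The phosphodiesterase gene Pde3b was at 28.8 to 32.3 CPM in ctrl and 13.3 to 14.4 CPM in caNrf2 (log2 fold change -1.13, edgeR adjusted p = 2.76e-05). Pde5a was lower as well, with a log2 fold change of -0.84 (edgeR adjusted p = 0.000875).

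Solute carriers for organic ions and drugs had 14 tested genes, of which 5 were higher and 1 lower. One of the higher genes, Slc22a3, had at most 1 count in ctrl. It passed the filter on low counts only through caNrf2, so it could be called only as higher. Slc22a23 was at 14.6 to 15.5 CPM in ctrl and 124 to 149 CPM in caNrf2 (log2 fold change 3.15, edgeR adjusted p = 1.34e-07). Slc22a4, a carrier of ergothioneine, was at 0.366 to 0.692 CPM in ctrl and 5.97 to 8.23 CPM in caNrf2 (log2 fold change 3.61, edgeR adjusted p = 1.95e-05). Slc22a15 was the gene that was lower (log2 fold change -0.55, edgeR adjusted p = 0.0124).

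Scaffolds that anchor pumps in the membrane had 6 tested genes. Ezr, the gene of ezrin, was at 12.7 to 14.9 CPM in ctrl and 28.9 to 36.0 CPM in caNrf2 (log2 fold change 1.2, edgeR adjusted p = 0.000118). Its relative Rdx, the gene of radixin, was lower by less (log2 fold change -0.34, edgeR adjusted p = 0.0296), and its call was lost without ctrl replicate 1, ctrl replicate 2, caNrf2 replicate 1 or caNrf2 replicate 3 and with the replicate block (edgeR adjusted p up to 0.069). The other 4 were not called.

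The list of transcription factors of pump genes and their regulators had 16 tested genes, of which 8 were higher and 2 lower. The 8 include Nfe2l2, whose mutant form the caNrf2 cultures held, and Keap1, which is not a transcription factor. Beside Nfe2l2, Ahr was at 6.41 to 9.19 CPM in ctrl and 20.5 to 23.3 CPM in caNrf2 (log2 fold change 1.51, edgeR adjusted p = 9.46e-05). Pparg and Nfe2l1 were lower, with log2 fold changes of -0.78 and -0.50 (edgeR adjusted p = 0.000854 and 0.00848). The xenobiotic and bile acid receptors Nr1i2, Nr1i3 and Nr1h4 had at most 3 counts in any library.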

How the data were processed

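Tables of 104129 transcripts were deposited for each of 6 libraries. Per the submitters' processing notes, RSEM 1.2.21, CASAVA 1.8 and the build GRCm38 were used. Which aligner, annotation release and strand setting were used is not given in the sources used here. The authors' values are, per the file headers, expected counts per transcript, TPM and FPKM. The deposited expected counts, which need not be whole, were summed per gene and rounded. The deposited TPM was summed per gene for order and shares, and the deposited FPKM was used as an alternative for the summed level only. Gene symbols were matched for 42462 of 43629 IDs, and of the listed genes only Pde2a was not found.

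Genes were filtered with filterByExpr (minimum count 10, minimum total 15), normalized with TMM and tested with edgeR 4.0.16 (R 4.3.3), two-sided, and p-values were adjusted by Benjamini-Hochberg over every tested gene (threshold 0.05). Standard errors were derived from the F statistic. log2 CPM used a prior count of 2. The test was also run on counts simulated from its own fitted model, which cannot show whether that model holds for these data. The members and lists were chosen with earlier results of these data known, and lists are described by counts and medians only. Because of that choice, no p is given for the summed level of the 10 genes, although a permutation test had been planned for it. Named are all 10 transporters, the 5 higher and 5 lower other ABC genes, and the 2 higher and 2 lower genes of each further list, with the smallest adjusted p among called genes, the 2 genes most like each of the 3 transporters with the largest called change, and Nfe2l2. Of each cell type marker list the rule takes the most abundant gene by TPM, called or not, and the called gene with the smallest adjusted p. Kcnj8, Kcnj11, Alox5, Alox5ap, Ggt5, Dlk2, Rgs5, Higd1b, Myh11, Col3a1, Pdgfra, Thy1, Keap1 and the receptors at or under 3 counts were named outside that rule after their values were seen. The same holds for Abca6, Abca8a, Abca8b, Gsta2, Ugt1a2, Ugt1a8 and Slc22a3. Promoter windows are RefSeq's on GRCm38.p6 and exons GENCODE M21's on GRCm38, with positions counted from 1.

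Alternatives were DESeq2 1.42.0, its size factors, scaling by upper quartile or by total count, no filter, a minimum count of 50, limma 3.58.1 (voom), unrounded and posterior mean counts, the replicate number as a block, Abcb1a and Abcb1b added, and each library left out. Leaving out replicate 1 of both groups, and short transcripts from the summed TPM, were added after seeing the data.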

Additional observations from a re-analysis of the deposited data

How the results depend on the processing

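The calls of the transporters, 3 higher and 1 lower, were the same in all 18 other settings, and the log2 fold changes lay between 1.89 and 2.14 for Abcc1, 0.90 and 1.2 for Abcc3, 3.32 and 3.42 for Abcc4, and -1.38 and -1.16 for Abcc9. Of the values of single transporters under these settings, 159 kept direction and call, and 1 changed sign without a call, Abcc10 at -0.0061 without ctrl replicate 1, in a range up to 0.1577 with single libraries left out. Of the other named genes, 823 values kept both, 51 lost the call, 1 gained it and 2 changed sign without a call, Mitf at 0.0828 without ctrl replicate 3 (-0.1453 to 0.0828 with single libraries left out) and Egfl7 at -0.0124 without replicate 1 of both groups. With single libraries left out, the other ABC genes counted 4 to 7 higher and 1 to 4 lower. Over all genes, the lower ones numbered 823 without ctrl replicate 3 and 864 without caNrf2 replicate 2, against 1385, in a range of 823 to 1143 with single libraries left out. Genes with called transcript usage numbered 77 to 118 with single libraries left out, against 58 with all, and the cause was not tested. With the replicate block, usage was called for 30 genes, and the adjusted p of Abcc4 usage was 0.111. The ratio of the summed level was 2.641 in CPM, which is not per length, against 2.002 in TPM and 2.05 in FPKM.

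The main test did not treat equal numbers as pairs, since the labels do not say that they mark any. The deviations of same-numbered libraries correlated at 0.214, 0.209 and 0.095, and those of differently numbered libraries at -0.242 to 0.112. These values do not settle whether the numbers mark pairs. Only caNrf2 replicate 3 did not correlate best with its own number. The block left the calls of the transporters as they were and gave 1888 higher and 1330 lower genes in all. Depth limits Abcc2 and Abcb1a, which had at most 3 and at most 26 counts per library, and the ctrl side of Abcc4 usage. Scaling choices moved the median of all genes to -0.04 at most.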
